A study of Mus musculus with 3 samples.

Results

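The GATA factors *Gata2* and *Gata3*, the TAL factors *Tal1* and *Tal2*, and the genes *Lhx1*, *Lhx5*, *Foxn4*, *Sox14*, *Helt* and *Zfpm1* were followed across 3 sorted cell populations. These are 10 of the 20145 genes that could be named on the arrays, and 11 of the 26582 probes that carry a gene name. Each gene had 1 probe, found by the RefSeq transcript it carries, except *Zfpm1*, which had 2. The genes were chosen from measured values of these same arrays, because *Gata3* was bright in both ES cell fractions and not above background in MGE cells. The differences between ES and MGE cells are therefore given as a description.

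RNA levels were read on 3 one-color Agilent mouse arrays, 1 for each population. The ES cell fractions were the live cells with GFP (ES-Lhx6-GFP+, here GFP+ ES cells) and without GFP (ES-Lhx6-GFP-, here GFP- ES cells) that were sorted from aggregates of J14 cells, a male mouse ES cell line of 129S4/SvJae background, at day 12 of a protocol meant to yield cells of the medial ganglionic eminence (MGE), the embryonic forebrain source of many cortical interneurons. That protocol used Dkk-1, an inhibitor of Wnt signaling, at 100 ng/ml, and SAG, an agonist of hedgehog signaling, at 6 nM, and the solutions for dissociation held the Rock inhibitor Y-27632. The embryonic population (MGE-Lhx6-GFP+, here MGE cells) was GFP-positive cells sorted from the MGE of female CD1 embryos at E12.5. All 3 populations carried the same kind of transgene, a bacterial artificial chromosome in which *Lhx6* sequences drive GFP, and the labels give the J14 cells the viral reporter 692-mCherry as well. The ES cells are 1 line, the GFP-negative fraction holds every live cell of the aggregates without GFP, and the ES and MGE cells also differ in sex and strain. With 1 array per population there is no replicate check, and no test was made.

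GATA factors are zinc finger proteins that bind the sequence GATA, and Zfpm1 (FOG1) is a cofactor that binds to them. Tal1 and Tal2 are basic helix-loop-helix proteins that pair with E proteins on E-box sequences and work beside GATA factors in blood, where the complex was first described. In the ventral spinal cord, progenitors with Foxn4 give rise to V2 interneurons, and the inhibitory V2b branch among them uses Gata2, Gata3 and Tal1. In the midbrain, Helt, Gata2 and Tal2 take part in making GABAergic neurons, and Gata2 and Gata3 also act in serotonergic neurons of the hindbrain. These are regions outside the MGE, whose GABAergic neurons instead use Dlx, Nkx2-1, Lhx6 and Lhx8.

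The sequences in front of *Gata3*, *Gata2* and *Tal1* are shown, since these genes had the largest differences between GFP- ES and MGE cells in the main scaling. *Gata3* was chosen on such a difference, so nothing is read from their size. Each is the 250 bases before a RefSeq transcription start in GRCm38.p6, read 5′ to 3′ on the strand of the gene, and capitals mark a match to AGATAA on either strand.

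Gata3, chr2:9878601-9878850, minus strand: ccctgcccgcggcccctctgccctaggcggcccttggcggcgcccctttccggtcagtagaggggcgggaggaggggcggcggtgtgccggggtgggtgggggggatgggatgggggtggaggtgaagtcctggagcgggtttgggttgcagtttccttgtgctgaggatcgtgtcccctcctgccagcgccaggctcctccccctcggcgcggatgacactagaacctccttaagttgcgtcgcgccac

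Gata2, chr6:88193641-88193890, plus strand: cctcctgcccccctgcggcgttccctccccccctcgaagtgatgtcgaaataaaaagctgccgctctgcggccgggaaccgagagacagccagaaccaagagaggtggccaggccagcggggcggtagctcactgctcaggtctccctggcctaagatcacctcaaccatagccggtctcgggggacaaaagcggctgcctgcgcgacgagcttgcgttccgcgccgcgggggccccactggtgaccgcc

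Tal1, chr4:115056176-115056425, plus strand: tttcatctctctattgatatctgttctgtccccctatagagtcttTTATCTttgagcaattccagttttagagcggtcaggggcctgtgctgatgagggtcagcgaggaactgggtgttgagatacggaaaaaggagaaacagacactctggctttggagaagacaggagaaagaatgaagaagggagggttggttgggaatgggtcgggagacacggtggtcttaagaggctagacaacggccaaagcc

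RefSeq windows were at hand for 9 of the 10 genes, 11 windows in all, and none was at hand for *Lhx5*. The GATA motif AGATAA, searched on both strands, was found in 1 of the 11 windows, the *Tal1* window shown, with its first base at -205 from the start. The window of the other *Tal1* start (62.8% G and C) did not hold the motif. Among all 32851 windows of this length, 9.99% held it. TGATAA was in 0 of the 11 windows and in 7.94% of all windows. Of the E-box motifs, CANNTG was in 3 of the 11 windows (*Tal2*, *Helt* and *Sox14*) and in 66.2% of all windows, and CAGATG, which is 1 form of CANNTG, was in 0 of the 11 and in 14.4% of all. The windows were rich in G and C. In 10 of the 11 the share of G and C was above the median of all windows, 52.4%, at 70% for *Gata3*, 67.2% and 74% for the 2 starts of *Gata2*, and 73.2% for *Zfpm1*, while the *Tal1* window shown had 48.8%.

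Intensities are background-subtracted spot signals on a linear scale. The software called 77.1% to 90.6% of the 55681 mouse probes well above background, and the highest share was on the GFP+ ES array. That array also had more signal on 106 control probes for sequences that mouse cells lack (adenovirus E1A and ERCC), of which 86 were called well above background there, against 34 on each of the other arrays. The 95th percentile of these control probes was an intensity of 378 on the GFP+ ES, 212 on the GFP- ES and 153 on the MGE array, and is called the control limit here. For log2 differences each array was scaled to the 75th percentile of its mouse probes, and a probe not well above background was raised to the lowest value among probes that were, which makes any fold against it a lower bound. Repeat spots of 1 probe on an array had an SD of 0.140 to 0.144 (log2), so that 2 SDs of a difference between arrays came to a 1.32-fold difference. This is spread within an array and says nothing of the variation among cultures, embryos or sorts.

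The sort was checked on 10 genes of MGE neurons, among them *Lhx6*, whose sequences drive the GFP used for sorting. Of its 3 probes, that with intensities of 111947, 122188 and 97733 in GFP+ ES, GFP- ES and MGE cells was bright on every array. The others, at 5818, 399 and 10244 and at 16913, 1373 and 25391, were lowest in GFP- ES cells. All 10 were above the control limit on every array. Their median log2 difference between GFP+ ES and GFP- ES cells was 2.18, with 10 of 10 higher in the GFP-positive fraction, and 10 of 10 were lower in GFP- ES than in MGE cells. *Lhx8*, a LIM homeobox gene of MGE neurons, had an intensity of 3471 in GFP+ ES, 213 in GFP- ES and 11295 in MGE cells. The 2 ES fractions thus carried MGE genes to different degrees. In these sorted populations fewer cells of a type and less RNA per cell cannot be told apart.

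**Figure D1:**
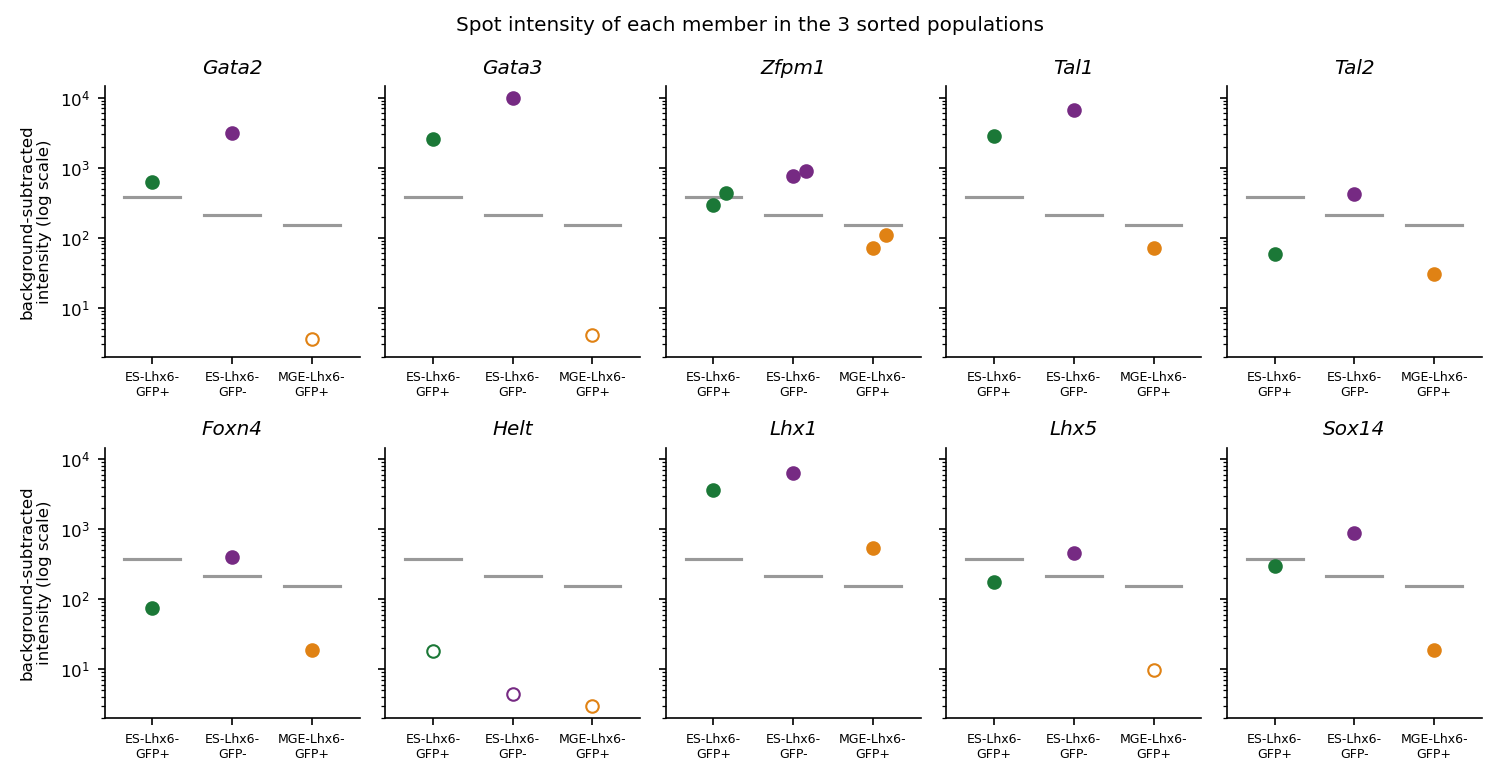
Background-subtracted spot intensity (log axis) of each probe of the 10 genes on the arrays of GFP+ ES, GFP- ES and MGE cells, 1 array per population. Filled points are well above background, open points are not, and the grey bars are the control limit of each array; the GFP- ES point is the highest for 9 of the 10 genes, the exception being *Helt*, whose points are all open.

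*Gata2* and *Gata3* were bright in both ES fractions and at background in MGE cells. *Gata3*, which in the nervous system acts in V2b and serotonergic neurons, had an intensity of 2589 in GFP+ ES cells, 9762 in GFP- ES cells and 4.02 in MGE cells, where it was not well above background. Both ES fractions were far above the control limit and the MGE cells were far under it. On the scaled arrays *Gata3* was at least 165-fold higher in GFP+ ES and at least 552-fold higher in GFP- ES cells than in MGE cells. It was 3.34-fold lower in GFP+ ES than in GFP- ES cells.

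*Gata2*, which is required for midbrain GABAergic neurons and precedes *Gata3* in V2b cells, had an intensity of 619 in GFP+ ES, 3083 in GFP- ES and 3.62 in MGE cells. It was again not well above background in MGE cells, and it was above the control limit in both ES fractions. The scaled difference to MGE cells was at least 39.5-fold for GFP+ ES and at least 174-fold for GFP- ES cells, and between the ES fractions *Gata2* was 4.41-fold lower in the GFP-positive one.

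These bounds depend on the floor. With the control limit as the floor for every dimmer probe, the log2 difference of *Gata3* to MGE cells was 3.71 for GFP+ ES and 5.45 for GFP- ES cells, against 7.37 and 9.11 with the lower floor. For *Gata2* the same values were 1.64 and 3.78, against 5.30 and 7.45.

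*Zfpm1*, the FOG1 cofactor, was measured by 2 probes, which are described apart. The first had intensities of 291, 769 and 71.2 in GFP+ ES, GFP- ES and MGE cells, and the second 440, 899 and 110. Both probes gave the same order of the populations, and in MGE cells both were well above background but under the control limit, as was the first probe in GFP+ ES cells. As the mean of both probes, *Zfpm1* was 3.12-fold higher in GFP+ ES and 6.41-fold higher in GFP- ES cells than in MGE cells. The latter, a log2 difference of 2.68, was 1.92 in the deposited values and 1.89 with the control limit as floor, both under 4-fold. It was 2.06-fold lower in the GFP-positive than in the GFP-negative fraction, by 2.34-fold on the first probe and 1.81-fold on the second.

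Of the TAL factors, *Tal1* (Scl), a partner of Gata2 and Gata3 in V2b cells and in blood, was bright in both ES fractions. Its intensity was 2803 in GFP+ ES, 6641 in GFP- ES and 72.2 in MGE cells. The MGE value was called well above background but lay under the control limit of that array. *Tal1* was 29.9-fold higher in GFP+ ES and 62.8-fold higher in GFP- ES cells than in MGE cells, and 2.10-fold lower in the GFP-positive than in the GFP-negative fraction.

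*Tal2*, a TAL factor of midbrain GABAergic precursors, had an intensity of 58.5 in GFP+ ES, 418 in GFP- ES and 29.9 in MGE cells. Only the GFP- ES value exceeded the control limit. Between the ES fractions it was 6.33-fold lower in the GFP-positive one. In GFP- ES cells it was 9.57-fold higher than in MGE cells, a log2 difference of 3.26 that was 1.97 in the deposited values, 1.76 with normexp background correction and 0.90 with the control limit as floor, all 3 under 4-fold. For GFP+ ES against MGE cells the value was 1.51-fold higher, and this direction turned with the scaling, to a log2 difference of -0.15 with the 50th percentile and -1.19 with quantile normalization.

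*Foxn4*, a forkhead gene of V2 progenitors, had an intensity of 74.0 in GFP+ ES, 402 in GFP- ES and 19.0 in MGE cells. As for *Tal2*, only the GFP-negative fraction exceeded the control limit. *Foxn4* was 14.5-fold higher in GFP- ES than in MGE cells and 4.82-fold lower in GFP+ ES than in GFP- ES cells. The log2 difference to MGE cells, 3.86, was 2.01 with normexp and 0.85, under 4-fold, with the control limit as floor. It was 3.01-fold higher in GFP+ ES than in MGE cells, which quantile normalization turned to a log2 difference of -0.13.

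*Helt*, a basic helix-loop-helix gene of midbrain GABAergic progenitors, had intensities of 18.0, 4.45 and 2.98 in GFP+ ES, GFP- ES and MGE cells. None of these was well above background, so no fold is given, and *Helt* is left out of the counts that follow.

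*Lhx1*, a LIM homeobox gene found in several classes of spinal and midbrain interneurons, had an intensity of 3654 in GFP+ ES, 6279 in GFP- ES and 539 in MGE cells. It was the only 1 of the 10 genes above the control limit in MGE cells. *Lhx1* was 5.22-fold and 7.95-fold higher in GFP+ ES and GFP- ES cells than in MGE cells, and 1.52-fold lower in the GFP-positive than in the GFP-negative fraction. Against MGE cells the log2 difference of GFP+ ES cells, 2.39, was 1.64 with the 50th percentile, under 4-fold.

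*Lhx5*, a close relative expressed in overlapping interneuron classes, had an intensity of 176 in GFP+ ES, 457 in GFP- ES and 9.78 in MGE cells, the last not well above background. The GFP+ ES value was under the control limit. Its difference to MGE cells was at least 11.2-fold for GFP+ ES and at least 25.8-fold for GFP- ES cells. As a log2 difference the first was 3.49, which became 1.41 in the deposited values and had no value with the control limit as floor, and the second was 4.69, which became 1.03 with that floor. *Lhx5* was 2.30-fold lower in the GFP-positive than in the GFP-negative fraction, a log2 difference of -1.20 that shrank to -0.10 with the control limit as floor.

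*Sox14*, a SOX gene of V2 cells and of GABAergic neurons in the midbrain and diencephalon, had an intensity of 297 in GFP+ ES, 872 in GFP- ES and 19.0 in MGE cells. The GFP- ES value was above the control limit and the other values were under it. *Sox14* was 12.0-fold higher in GFP+ ES and 31.3-fold higher in GFP- ES cells than in MGE cells, and 2.60-fold lower in the GFP-positive than in the GFP-negative fraction. Against MGE cells the log2 difference of GFP+ ES cells, 3.59, was 1.51 with normexp and 1.32 in the deposited values, both under 4-fold, and had no value with the control limit as floor. That of GFP- ES cells, 4.97, was 1.96 with the control limit as floor, also under 4-fold.

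**Figure D2:**
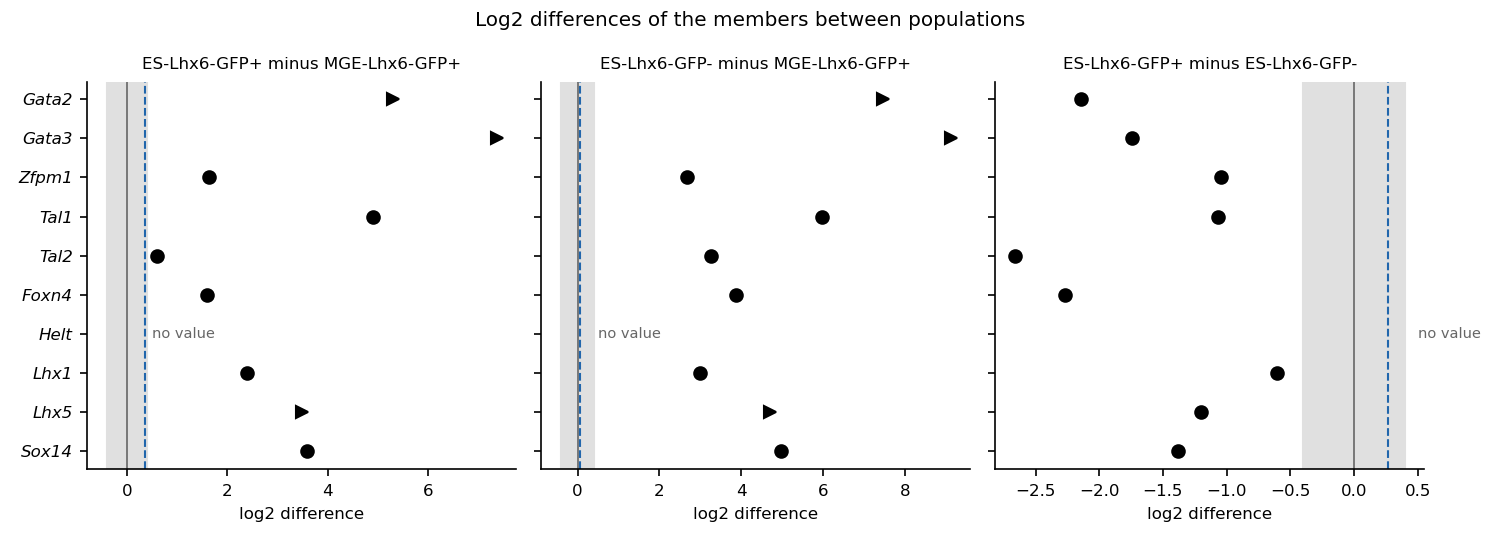
Log2 differences of the 10 genes between populations after scaling to the 75th percentile, 1 panel per comparison. Circles are measured on both arrays and triangles are lower bounds, the grey band is 2 SDs of a difference between repeat spots, the dashed line is the median of all genes, and every gene with a value lies outside the band, to the right in the panels against MGE cells and to the left between the ES fractions.

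In all, 9 of the 10 genes were well above background on each ES array and 6 on the MGE array. Above the control limit were 5 in GFP+ ES cells (*Gata2*, *Gata3*, *Tal1*, *Lhx1* and 1 probe of *Zfpm1*), 9 in GFP- ES cells and 1 in MGE cells. Differences of at least 4-fold were counted. GFP+ ES cells were higher than MGE cells by this much for 6 of 9 genes (*Gata2*, *Gata3*, *Tal1*, *Lhx1*, *Lhx5* and *Sox14*), where 13.5% of all genes with a value were. GFP- ES cells were higher than MGE cells for 9 of 9, where 6.8% of all genes were. The comparisons share the MGE array, and the genes were chosen on them, so nothing is read from these counts.

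Between the ES fractions, GFP+ ES cells were lower by at least 4-fold for 3 of 9 genes (*Gata2*, *Tal2* and *Foxn4*), where 1.75% of all 18655 genes with a value were. At least 2-fold lower were 8 of 9, all but *Lhx1*, where 6.4% of all genes were. The median log2 difference of the 9 genes was -1.38 and that of all genes 0.27. The sign of the all-gene median depended on the scaling. It was -0.18 with the 50th percentile, while the median of the 9 genes minus that of all genes was -1.64 with either percentile and -1.63 with quantile normalization.

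**Figure D3:**
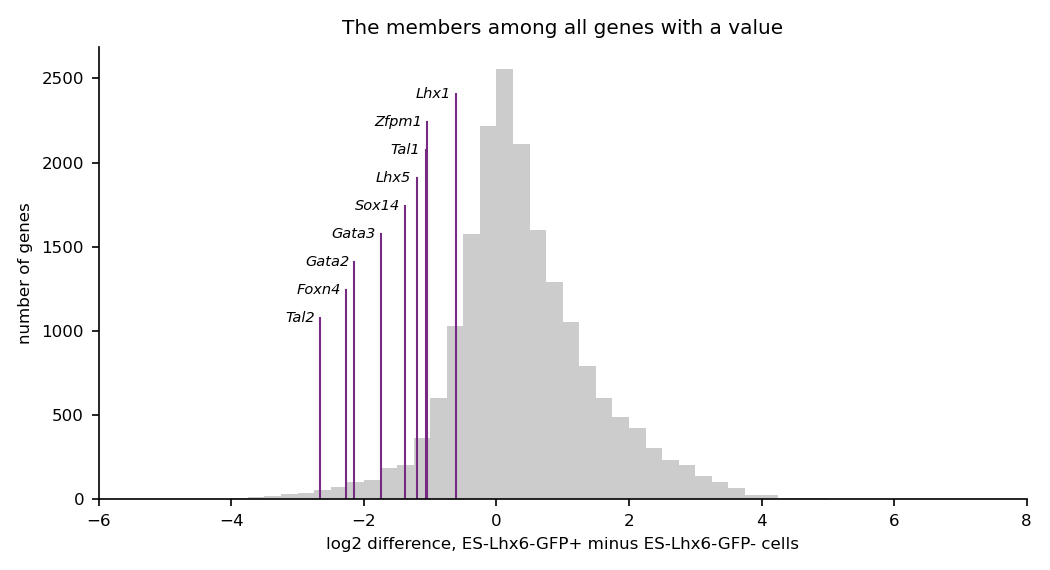
Histogram of the log2 difference between GFP+ ES and GFP- ES cells over the 18655 genes with a value, with a line at the value of each of the 9 genes. All 9 lie left of the median of all genes, from -2.66 for *Tal2* to -0.61 for *Lhx1*.

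The authors' normalized log2 levels gave the same order of the ES fractions. *Gata3* was at 11.33 in GFP+ ES, 12.99 in GFP- ES and 5.86 in MGE cells on that scale, and *Tal1* at 11.39, 12.29 and 7.45. For *Tal2*, whose levels were 6.36, 8.47 and 6.49, and for *Foxn4*, at 6.51, 8.60 and 6.37, the GFP+ ES and MGE levels were close to each other, and only the GFP-negative fraction stood apart. *Helt* was at 5.68 to 5.82 in the 3 populations.

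The genes with a pattern most like that of *Gata3* were sought among the 11567 genes above the control limit on at least 1 array, by the distance between their 3 log2 values after centering each gene on its own mean. The nearest was *Igf2*, an imprinted growth factor gene, at a distance of 0.83. The serotonin transporter gene *Slc6a4* followed at 0.86. *Sparcl1*, *Shox2*, *Gata2*, *Egln3*, *Irx3*, *Cldn6* and *Igfbp1* were among the next, at 1.52 to 1.89. They include *Irx3*, a homeobox gene of neural progenitors. *Gata2* was thus the 5th and *Tal1* the 15th in this order, at 1.55 and 2.34, *Sox14* the 57th and *Lhx5* the 74th, and the other genes with a value were between the 320th (*Foxn4*) and the 623rd (*Tal2*). Dim probes were raised to the floor here too, so the values of *Gata3* and *Gata2* in MGE cells are the floor itself, which adds to their likeness. With 3 arrays this order describes these arrays alone.

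Genes of the V2 lineage and of neighboring ventral spinal progenitors were taken as a list of 17. In GFP- ES cells, 16 of the 16 with a value were higher than in MGE cells, 11 of them by at least 4-fold, where 6.8% of all genes were, with a median log2 difference of 3.06 where that of all genes was 0.06. With the control limit as floor 5 of 12 were higher by that much, where 2.98% of all genes were. *Irx3* was at least 271-fold higher. *Nkx6-2* and *Nkx6-1*, which specify ventral progenitors, were 88.4-fold and 22.9-fold higher. The V2 and motor neuron genes *Lhx4* and *Lhx3* were at least 49.4-fold and 42.9-fold higher. Their intensities in GFP- ES cells were 874 for *Lhx4* and 759 for *Lhx3*, both above the control limit, and in GFP+ ES cells 100.2 and 152, both under it.

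In GFP+ ES cells 14 of the 15 V2 and ventral spinal genes with a value were lower than in GFP- ES cells, 8 of them by at least 4-fold, where 1.75% of all genes were, and the median log2 difference was -2.15. Among the 8 were *Irx3* (10.2-fold lower), *Nkx6-2* (9.07-fold), *Lhx4* (7.72-fold), *Nkx6-1* (5.68-fold), *Irx5* (5.24-fold), *Prdm8* (4.53-fold) and *Lhx3* (4.42-fold). *Bhlhe22* was the 1 gene that was higher, by a log2 difference of 0.63. Over the 9 other settings the median ranged from -2.49 to -1.26 and the number at least 4-fold lower from 4 (of 10 with a value, with the control limit as floor) to 10 (of 16, with quantile normalization). The share of all genes was 1.07% with that floor and 5.06% with quantile normalization. Above the control limit were 3 of the 17 genes in GFP+ ES, 12 in GFP- ES and 2 in MGE cells. *Sim1*, which marks the V3 class, was not well above background in any population.

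Serotonergic genes, a list of 6, were higher than in MGE cells for 6 of 6 in each ES fraction. At least 4-fold higher were 4 in GFP+ ES cells, where 13.5% of all genes were, and 6 in GFP- ES cells, where 6.8% were. With the control limit as floor the 4 in GFP+ ES cells became 2, where 1.17% of all genes were. *Fev* (Pet1), the serotonergic ETS factor, had an intensity of 1021 in GFP+ ES, 6846 in GFP- ES and 52.9 in MGE cells. *Tph2*, the enzyme that limits serotonin synthesis in neurons, was at 786, 1876 and 16.6. All 6 genes exceeded the control limit in both ES fractions, and 6 of 6 were lower in GFP+ ES than in GFP- ES cells, with a median log2 difference of -1.87 and with *Fev* 5.94-fold and *Slc6a4* 4.78-fold lower.

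Of 16 midbrain and dorsal spinal GABAergic genes listed 15 had a probe, and the median log2 difference between the ES fractions was -0.10 over 14 genes, with 7 higher and 7 lower in GFP+ ES cells, a split that was 4 to 10 with the 50th percentile or quantile normalization. At least 4-fold lower in GFP+ ES cells were 0 of them, where 1.75% of all genes were, or 2 with quantile normalization, where 5.06% were. At least 4-fold higher were 2, *Ptf1a* (at least 7.19-fold) and *Gbx1* (6.61-fold as the mean of 2 probes), where 8.27% of all genes were, and 0 with normexp, in the deposited values and with the control limit as floor. Against MGE cells, 3 of 14 genes were higher in GFP- ES cells by at least 4-fold, where 6.8% of all genes were. They were *Nkx2-2* (at least 40.5-fold), *Skor1* (at least 9.98-fold) and *Pou4f1* (6.86-fold). *Pou4f1*, at an intensity of 226 in GFP- ES cells, was just above the control limit. The number was 1 with normexp, with unsubtracted signals and in the deposited values, where 2.62%, 3.12% and 2.73% were. *Gbx2* was 6.61-fold lower. Not every gene listed is particular to these lineages, and the paper counts *Nkx2-2* among hypothalamic and *Gbx2* among globus pallidus markers. The 2 probes of *Gbx1*, on average 10.4-fold lower, had intensities of 24.2 and 211 in GFP- ES against 521 and 492 in MGE cells, so they differed in size. *Ptf1a*, which specifies dorsal inhibitory neurons, was not well above background in GFP- ES cells and was under the control limit in the other populations. *Pax2*, *Pax5* and *En2*, which act in the midbrain and hindbrain, were 1.28-fold to 2.47-fold higher in GFP- ES than in MGE cells.

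The genes of GABA synthesis and transport were higher in GFP+ ES than in GFP- ES cells, the opposite order to the GATA and TAL genes, for 5 of the 5 with a value. Their median log2 difference was 1.29, where that of all genes was 0.27. At least 4-fold higher was 1 of them, *Gad1*, where 8.27% of all genes were, and 0 with the 50th percentile. *Gad1* is also among the genes of the sort check. *Gad1*, a GABA-synthesizing enzyme, had an intensity of 15760 in GFP+ ES, 4071 in GFP- ES and 10376 in MGE cells.

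**Figure D4:**
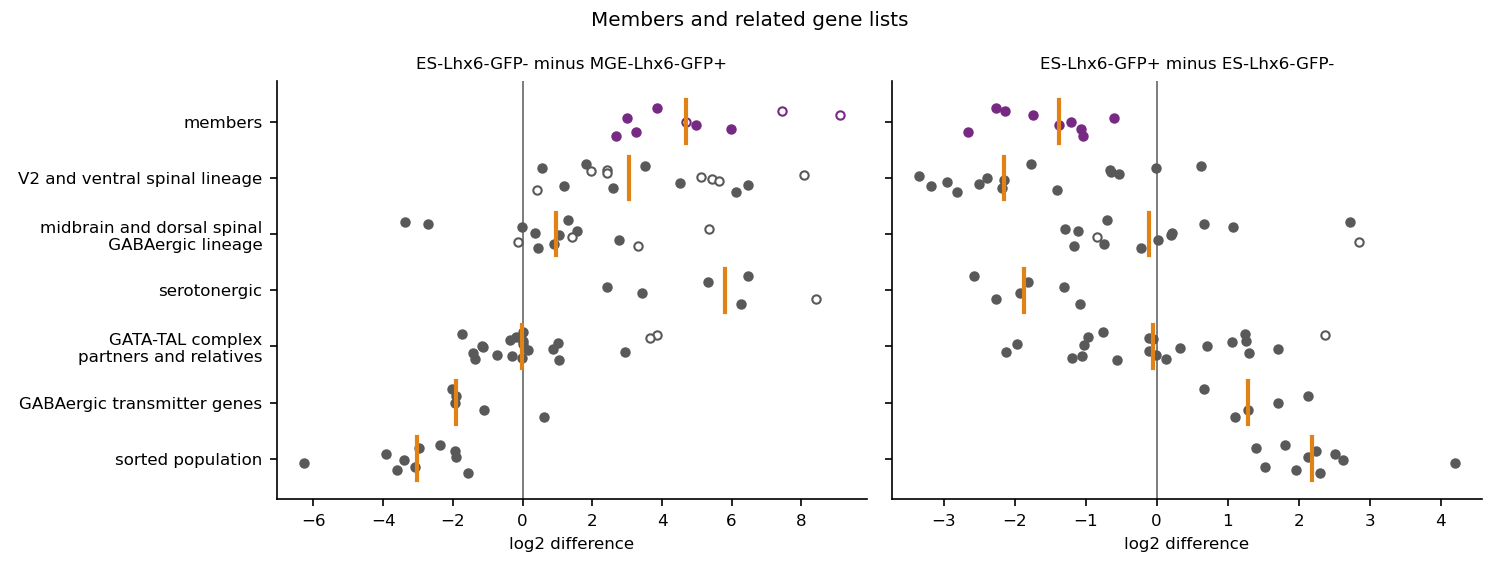
Log2 differences of the 9 genes with a value and of 6 related gene lists, for GFP- ES against MGE cells and for GFP+ ES against GFP- ES cells. Each circle is a gene, open circles are bounds, and orange bars are medians; the GATA and TAL genes, the V2 list and the serotonergic list lie right of 0 in the left panel and have medians left of 0 in the right panel, and the sorted population list lies on the other side in both.

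Among 21 genes of partners and relatives of GATA and TAL factors, the median log2 difference was -0.28 for GFP+ ES and -0.0027 for GFP- ES cells against MGE cells, and -0.05 between the ES fractions. At least 4-fold higher in GFP- ES than in MGE cells were 3 of 20, *Gata4* (at least 14.5-fold), *Gata6* (at least 12.5-fold) and *Nhlh2* (7.62-fold), where 6.8% of all genes were. The number was 1 with normexp, with unsubtracted signals, in the deposited values and with the control limit as floor. In these settings 2.62% to 3.12% of all genes were. *Gata4* and *Gata6*, which act mainly in endoderm and heart, had intensities of 256 and 274 in GFP- ES cells, just above the control limit. At least 4-fold higher in GFP+ ES than in MGE cells were 4 of 21, *Gata1*, *Gata4*, *Gata6* and *Lyl1*, all at intensities under the control limit of the GFP+ ES array, where 13.5% of all genes were higher by that much. The number was 2 with the 50th percentile and 1 with quantile normalization, where 5.39% and 3.49% of all genes were. It was 0 with normexp, with unsubtracted signals, in the deposited values and with the control limit as floor.

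Of the proteins that bridge GATA and TAL factors, the LIM-only genes *Lmo1* and *Lmo2* were 3.90-fold and 2.03-fold lower in GFP+ ES than in GFP- ES cells, and *Ldb1* and *Ldb2*, whose proteins bind them, were 2.40-fold and 2.09-fold higher. The E protein genes *Tcf3* and *Tcf12* were 2.28-fold and 2.08-fold lower, and *Tcf4* differed by 1.09-fold, within 2 SDs of repeat spots. Of the 21 genes of partners and relatives, only *Nhlh2*, a helix-loop-helix gene of neurons, was lower by at least 4-fold (4.34-fold), where 1.75% of all genes were. Only *Gata1* was higher by that much (at least 5.18-fold), where 8.27% of all genes were. The number higher was 0 with the 50th percentile, quantile normalization, normexp, unsubtracted signals and the deposited values. The number lower was 0 with normexp and with unsubtracted signals. It was 1 in the deposited values, where 1.47% of all genes were. With the 50th percentile or quantile normalization it was 2, where 3.13% and 5.06% were.

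Since GATA and TAL genes are also used in blood and vessels, trophoblast and surface ectoderm, markers of these were read on the same arrays. Of 10 erythroid genes, 2, 2 and 3 were above the control limit in GFP+ ES, GFP- ES and MGE cells, and their summed intensity was 2710, 1511 and 17760. Most of the MGE sum came from 3 globin probes, at 6004 (*Hba-a1*), 5395 and 5873 (*Hbb-y*). Of the 9 erythroid genes with a value, 5 were higher and 4 lower in GFP+ ES than in MGE cells. At least 4-fold higher were 3, *Klf1* (9.04-fold), *Epor* (6.72-fold) and *Gata1* (by a log2 difference of at least 2.38), where 13.5% of all genes were. The number was 1 with quantile normalization, normexp and unsubtracted signals, where 3.49%, 1.05% and 1.93% were. *Nfe2* was 3.70-fold higher. *Epor* and *Nfe2*, at 166 and 277 in GFP+ ES cells, were under the control limit. *Gata1*, the GATA factor of red cells, had intensities of 81.5, 16.7 and 6.18, under the control limit on all 3. *Klf1*, an erythroid factor, was at 1210, 646 and 103, higher in both ES fractions than in MGE cells. Of 11 endothelial and early blood genes, 2, 3 and 3 were above the limit, with sums of 2785, 2486 and 2547, and *Cdh5*, which defines endothelium, was not well above background on any array. Of 7 trophoblast genes 0, 1 and 0 were above the limit, with sums of 682, 506 and 199.6, and *Tpbpa* was not well above background on any. Of 8 surface ectoderm genes 4, 5 and 3 were above it, with sums of 96505, 117203 and 88699. Most of these sums came from 1 probe of *Trp63* (93467, 113809 and 85726), whose other probe was not well above background on any array, and *Krt18*, an epithelial keratin, was at 780.0, 1428 and 95.6. The part of such cells in the values of the GATA and TAL genes was not tested.

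**Figure D5:**
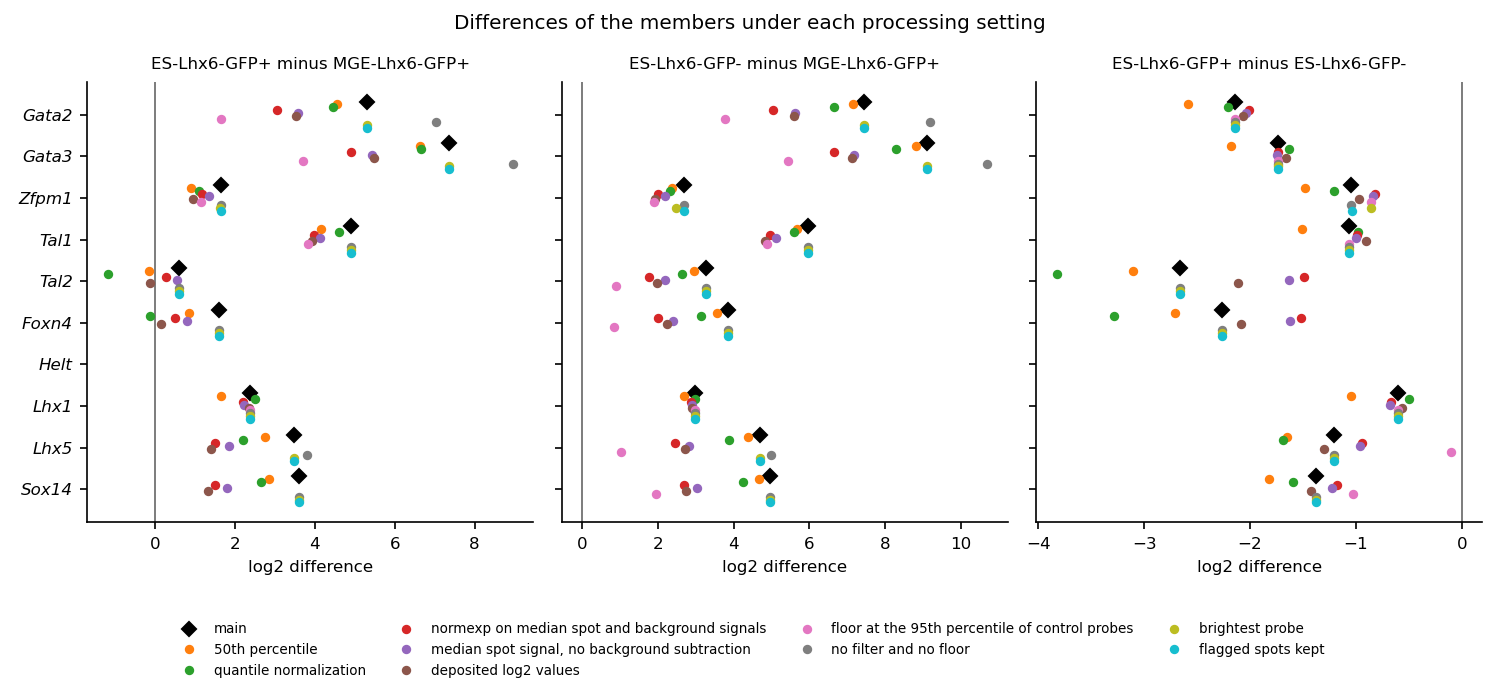
Log2 differences of the 9 genes with a value under the main setting (black diamonds) and 9 other settings (colors), 1 panel per comparison. Between GFP- ES and MGE cells every point lies right of 0 and between the ES fractions every point lies left of 0, while for GFP+ ES against MGE cells points of *Tal2* and *Foxn4* lie on both sides.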

How the data were processed

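The authors sorted the cells, amplified and labeled total RNA with Cy3, hybridized it to 1 slide with 3 arrays read in 1 scan, and extracted the spots with Agilent Feature Extraction (10.7.3.1 per the file headers; the methods name another version, and the labels another array format and labeling kit than the methods). The files they deposited hold background-subtracted intensities on a linear scale, not scaled between arrays. They also deposited normalized log2 values of unstated scale, which lay within 0.212 of quantile-normalized log2 median spot signals on every array (column medians 7.68 to 7.69).

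From the scanner files, log2 intensity minus the 75th percentile of mouse probes was computed (Python 3.11.15, numpy 2.4.6, pandas 2.3.3). Outlier-flagged spots were dropped (98 to 137 per array), 0 were saturated, and a gene is the mean of its probes. A probe counted as well above background where at least 0.5 of its spots were called so. Where neither array had that call, or the detected side lay under the floor of the other, no difference was given. Probes were named through a RefSeq gene table of GRCm38.p6. Alternatives are given in the closing section; normexp (limma 3.58.1, R 4.3.3, offset 50) used median spot and background signals in place of the planned mean signals, which were not used here. The scripts were tested on simulated data. The number of arrays limits the precision, and differences were set only against repeat spots. All 10 genes are named, list genes that were at least 4-fold different or that define a list are named with a few others chosen after their values were seen (*Pax2*, *Pax5*, *En2*, *Tph2*, *Lmo1*, *Lmo2*, *Ldb1*, *Ldb2*, *Tcf3*, *Tcf4*, *Tcf12*, *Sim1*, *Nfe2*), and so are those of the 10 genes nearest to *Gata3*; a few listed genes are not reported here. The genes and all lists were chosen with earlier results of these data known.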

Additional observations from a re-analysis of the deposited data

How the results depend on the processing

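Over 9 settings, 237 single-gene log2 differences were recomputed: 114 moved by less than 1 SD of a difference between repeat spots, 119 by more, and 4 turned direction, all for GFP+ ES against MGE cells. These were *Tal2* (-0.15 with the 50th percentile, -1.19 with quantile normalization, -0.14 with the deposited log2 values) and *Foxn4* (-0.13 with quantile normalization), and the cause was not tested. The 114 include values that could not move. The brightest probe leaves a gene with 1 probe unchanged, and dropping filter and floor leaves values measured on both arrays unchanged. Keeping flagged spots hardly moved values (*Gata3* from 7.3693 to 7.3695 for GFP+ ES against MGE cells). No stability is read from the 114. With the control limit as floor, the genes at least 4-fold higher than MGE cells were 3 of 5 for GFP+ ES (6 of 9 in the main setting) and 4 of 9 for GFP- ES (9 of 9). With that floor 1.17% and 2.98% of all genes with a value were. For GFP+ ES the number was 4 of 9 with normexp, with unsubtracted signals and in the deposited values. The shares of all genes there were 1.05%, 1.93% and 1.06%. For GFP- ES it was 8 of 9 with normexp and 7 of 9 in the deposited values, where 2.62% and 2.73% were. Genes at least 4-fold lower in GFP+ ES than in GFP- ES cells were 3 in the main setting. There was 1 with normexp, 1 with median signals without background subtraction and 1 of 7 with the control floor. The shares of all genes in these other settings were 0.84%, 0.92% and 1.07%. In the main setting 8 were at least 2-fold lower, where 6.4% of all genes were. Background subtraction and the floor set the size of differences to dim probes: that of *Gata2* between GFP- ES and MGE cells ranged from 3.78 to 9.18. Of all genes, 13.5% were at least 4-fold higher in GFP+ ES than in MGE cells with the 75th percentile, 5.39% with the 50th and 3.49% with quantile normalization. At least 4-fold lower in GFP+ ES than in GFP- ES cells were 1.75%, 3.13% and 5.06%. Without replicates no array could be left out. No paired analysis was possible because each population had 1 array.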
